A study of Rattus norvegicus with 18 samples.

Results

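The chemokines Ccl2 and Cxcl14 and the cytokine Il6 were followed in the rat femur before and after fracture. The members were all probe sets annotated to these 3 genes, which gave 6 of the 8799 probe sets on the array, 2 for each gene, and 3 of the 4736 genes that the array names. A probe set is the group of oligonucleotides on the array that together measure a single transcript. Levels of mRNA were measured in intact female Sprague-Dawley rats, called young at 6, adult at 26, and older at 52 weeks of age. The groups were sham rats with no fracture and rats with a closed fracture of the middle of the left femur, held by a steel rod in the marrow canal and examined 3 days or 1, 2, 4, or 6 weeks later. Each array held the pooled RNA of 2 rats, and with 1 array for every age at every time there were 18 in all. Every sample was a segment of the femoral shaft with its callus, cortical bone, and marrow, so the signals are those of a mixed tissue, and in such samples fewer cells of a type and less RNA per cell cannot be told apart.

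Chemokines are small secreted proteins that direct the movement of leukocytes through receptors coupled to G proteins. Ccl2, or monocyte chemoattractant protein, draws monocytes out of marrow and blood into injured tissue through the receptor Ccr2. Cxcl14 is a chemokine that many epithelial and stromal tissues make without injury. Il6 encodes interleukin 6, a cytokine that signals through its receptor Il6r and the shared subunit Il6st to Janus kinases and Stat3, and is known in the liver for inducing the acute phase proteins and in bone for acting on osteoclasts and osteoblasts.

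The genes lie on different chromosomes of the RefSeq assembly GRCr8, Il6 at chr4:5889999-5894575, Ccl2 at chr10:67503077-67504875, and Cxcl14 at chr17:8323150-8331176. The 250 bases before the start of Il6 and of Cxcl14 are shown because inducible transcription of cytokine genes is read from this stretch. No window for Ccl2 is shown. The Il6 window is chr4:5894576-5894825 on the minus strand, and the Cxcl14 window is chr17:8322900-8323149 on the plus strand. Capitals mark matches to 4 motifs that were searched on both strands, AP-1 (TGANTCA), C/EBP (TTGCNNAA), the TATA box (TATAAA), and the NF-kB motif.
Il6: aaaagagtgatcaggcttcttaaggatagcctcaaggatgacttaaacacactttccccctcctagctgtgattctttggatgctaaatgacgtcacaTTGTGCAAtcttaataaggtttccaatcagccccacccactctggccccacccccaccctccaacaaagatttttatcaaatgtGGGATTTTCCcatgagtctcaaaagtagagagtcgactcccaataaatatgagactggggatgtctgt
Cxcl14: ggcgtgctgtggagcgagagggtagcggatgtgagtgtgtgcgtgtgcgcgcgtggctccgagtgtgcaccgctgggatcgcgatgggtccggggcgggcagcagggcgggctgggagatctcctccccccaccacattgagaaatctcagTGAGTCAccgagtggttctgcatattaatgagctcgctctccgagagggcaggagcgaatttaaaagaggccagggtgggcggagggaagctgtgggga

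In the Il6 window the C/EBP match lay at positions -152 to -145, counted back from the start, and the NF-kB match at -68 to -59. Of 33469 promoter windows of the same length, 9.22% held the C/EBP motif and 6.33% the NF-kB motif. In the Cxcl14 window the AP-1 match lay at -99 to -93, and 6.34% of windows held it. Neither window had the letters of the TATA box, which 12.9% of windows held. These are matches of letters and not measured binding sites.

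Signals are in arbitrary intensity units, scaled by the authors to an average of 500 on each array, and are comparable between arrays but not between probe sets. Signals below 100 were treated as 100 before log2 and are called below the floor. Fold changes are ratios of geometric means, that is, differences of mean log2 signals, and are lower bounds where an array of the lower group was below the floor. For the comparisons, a probe set had to reach 200 on at least 3 arrays, as 4669 did. Of the 6 member probe sets, 5 passed. A time had 3 arrays, of different ages, and an age had 5 arrays after fracture, of different times, and these stood for replicates. Age or time was a term in the limma fit, so the spread behind its p-values is what is left between these arrays after the mean differences of that term. In this spread, variation between arrays and a time course that differs with age cannot be told apart. On single arrays 37.2% to 43.3% of all signals were below the floor. The young 6 weeks array had a 5'/3' Gapdh ratio, which is low in degraded RNA, of 0.257, where the others had 0.650 to 0.913. The small number of arrays limits the precision of every value.

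Ccl2 was up-regulated at 3 days on both of its probe sets. On its mRNA probe set (X17053mRNA_s_at) the signals without fracture were 96.2 in young, 132.8 in adult, and 225.5 in older rats. At 3 days after fracture they were 1313.0, 1728.3, and 1756.7. The lowest signal at 3 days was thus well above the highest without fracture, and the groups did not overlap. The increase was at least 11-fold (log2 3.46 ± 0.31 SE, limma adjusted p = 6.38e-06), since the young no-fracture array was below the floor. On the cds probe set (X17053cds_s_at) the signals were 103.4, 94.3, and 101.2 without fracture and 597.6, 878.5, and 864.9 at 3 days in young, adult, and older rats. These groups did not overlap either. The increase was at least 7.57-fold (log2 2.92 ± 0.27, adjusted p = 8.27e-06).

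After the peak the Ccl2 signals were highest in the older rats. At 1 week the mRNA probe set read 527.9 in young, 470.8 in adult, and 1610.2 in older rats, and at 2 weeks 564.6, 429.3, and 709.9. The older rats therefore remained near their own peak at 1 week, while the signals of the others had dropped to less than the lowest 3 days signal. At 4 weeks the signals were 358.8, 305.0, and 797.7, and at 6 weeks 271.1, 244.3, and 907.7. Every one of these signals was higher than the highest signal without fracture. Against no fracture the mRNA probe set rose at least 5.11-fold at 1 week (log2 2.35, adjusted p = 0.000177) and at least 3.86-fold at 2 weeks (log2 1.95, adjusted p = 0.000633). It was still up at least 3.08-fold at 4 weeks (log2 1.62, adjusted p = 0.00547) and at least 2.72-fold at 6 weeks (log2 1.44, adjusted p = 0.0172). The 4 and 6 weeks calls were both lost with a floor of 200 (adjusted p = 0.0835 and 0.157) and with no age term (0.0964 and 0.169). They were also lost with only the 6 arrays of the times compared (0.13 and 0.452). The 6 weeks call was lost without the older 6 weeks array too (log2 1.15, adjusted p = 0.135). Without the young 6 weeks array, the array with the low Gapdh ratio, the change at 6 weeks was 1.55 ± 0.35 on the log2 scale (adjusted p = 0.024).

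The cds probe set of Ccl2 was also past its peak after 3 days. At 1 week it read 212.7 in young, 382.0 in adult, and 716.7 in older rats, and at 2 weeks 196.1, 242.2, and 347.9. All of these were above the signals without fracture, and the increase was at least 3.82-fold at 1 week (log2 1.93, adjusted p = 0.000195) and at least 2.51-fold at 2 weeks (log2 1.33, adjusted p = 0.00305). At 4 weeks the signals were 117.2, 154.7, and 237.5, and at 6 weeks 164.0, 151.7, and 297.3. The differences from no fracture at these times did not pass the test (log2 0.68, adjusted p = 0.163, and log2 0.94, adjusted p = 0.0641). The 6 weeks difference passed without the young no-fracture array (log2 1.19, adjusted p = 0.0255) and without the young 1 week array (log2 0.94, adjusted p = 0.0478). The cds probe set was thus called at 3 times and the mRNA probe set at 5 times, and the pair correlated at r = 0.924 over the 18 arrays on the log2 scale.

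**Figure D1:**
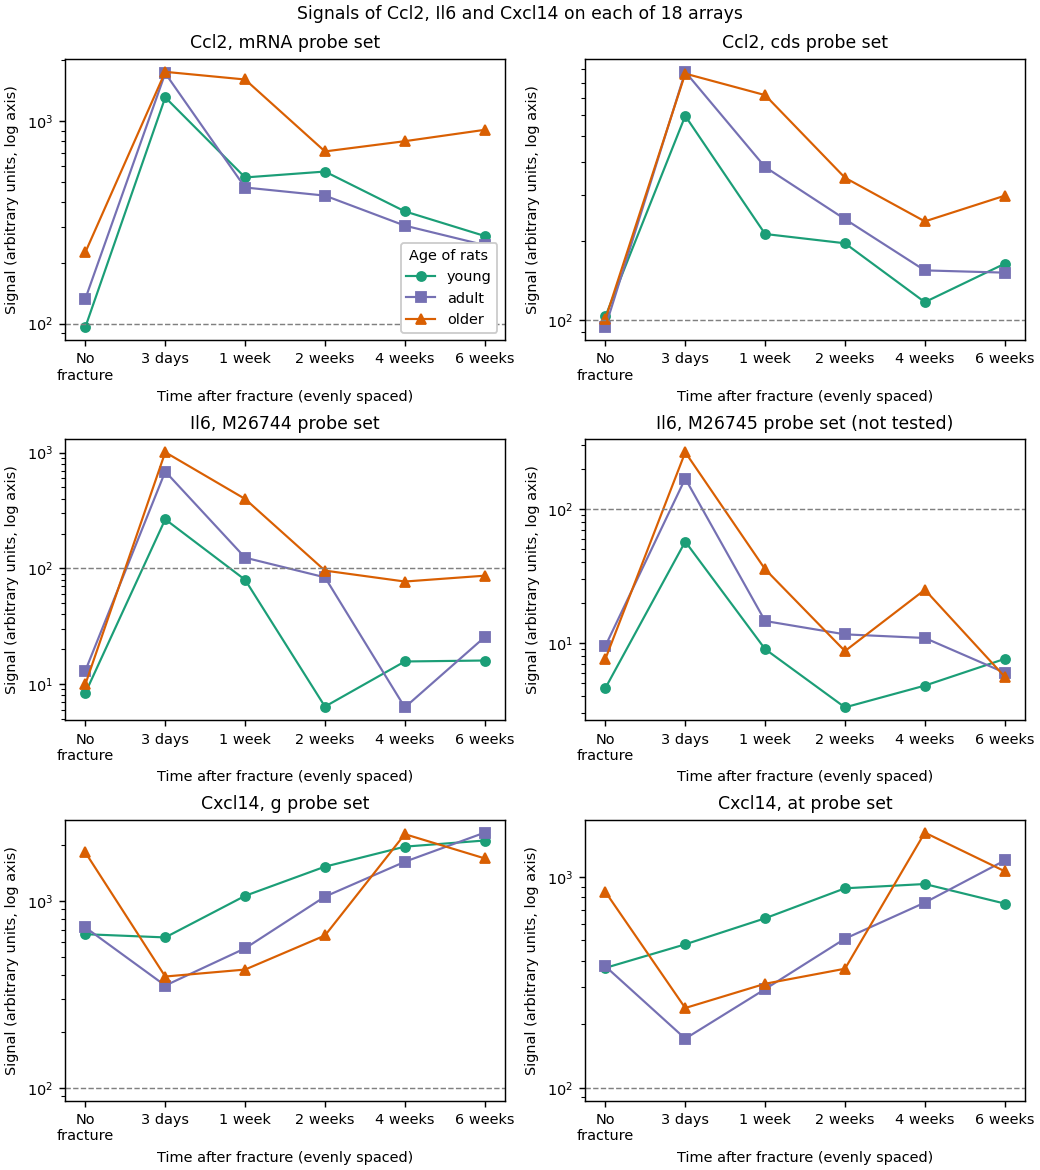
Signal (arbitrary units, log axes) of each probe set of Ccl2, Il6, and Cxcl14 without fracture and at 5 times after fracture (evenly spaced), with 1 array per age and time for young, adult, and older rats. The dashed line is the floor of 100. Ccl2 and Il6 peaked at 3 days at every age, and Cxcl14 was lowest at 3 days in the adult and older rats on both probe sets.

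Il6 was above the floor only at 3 days and 1 week. On the probe set M26744_at the signals without fracture were 8.4 in young, 13.1 in adult, and 10 in older rats, all below the floor. At 3 days they were 265.5, 687.0, and 1008.2, and at 1 week 79.7, 123.8, and 398.0. All of the 3 days signals were above the floor and above every signal without fracture, and at 1 week the young array was again below the floor. At 2 weeks the signals were 6.4, 83.7, and 95.7, at 4 weeks 15.7, 6.3, and 77.0, and at 6 weeks 16.0, 25.5, and 86.5. These later signals were all below the floor, so no later difference from no fracture could be measured. In all, 13 of the 18 arrays were below the floor.

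The increase of Il6 at 3 days was at least 5.69-fold (log2 2.51 ± 0.40, adjusted p = 0.000217). This probe set reached 200 on 4 arrays only, the 3 arrays of 3 days and the older 1 week array, so it could enter the test only through the group in which it was high, and its call is given as a description. At 1 week the difference from no fracture did not pass the test (log2 0.77, adjusted p = 0.183), but it did with a floor of 20 (log2 2.98 ± 0.60, adjusted p = 0.00217). Il6 fell between 3 days and 1 week (log2 -1.74 ± 0.40, adjusted p = 0.0342), with lower signals at 1 week at all 3 ages, which is a description for the same reason. This call was lost without any of 5 arrays, the young 1 week (adjusted p = 0.21), adult 3 days (0.223), adult 1 week (0.122), adult 4 weeks (0.0514), and older 3 days (0.0831) arrays.

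The other Il6 probe set, M26745cds_s_at, had a signal of 200 or more on 1 array and was not tested. Its signals were 4.6, 9.5, and 7.6 without fracture and 57.3, 169.6, and 266.8 at 3 days in young, adult, and older rats. As on M26744_at, the older rats were highest and the young rats lowest at 3 days. At 1 week and later the signals ran from 3.3 to 35.6, all below the floor. When all probe sets were tested with no filter, the difference at 3 days was 0.73 ± 0.23 on the log2 scale (adjusted p = 0.044).

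Cxcl14 had a different time course from Ccl2 and Il6, with its lowest mean at 3 days and its highest at 4 or 6 weeks. On the probe set rc_AA874803_g_at, called g here, the signals without fracture were 663.4 in young, 721.2 in adult, and 1816.1 in older rats. At 3 days they were 637.6, 352.3, and 393.8. The older rats had by far the highest signal without fracture, and at 3 days every signal was lower than the lowest without fracture. The decrease was 2.14-fold (log2 -1.10 ± 0.40, adjusted p = 0.0345). It rested largely on the older no-fracture array, without which the change was -0.49 on the log2 scale (adjusted p = 0.234). The call was also lost without the adult 3 days array (-0.99, adjusted p = 0.118), without the older 3 days array (-1.04, adjusted p = 0.0875), and with no filter (-1.10, adjusted p = 0.11).

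The second Cxcl14 probe set, rc_AA874803_at, called at here, read 370.4, 376.8, and 849.7 without fracture and 479.2, 171.0, and 239.0 at 3 days in young, adult, and older rats. The young 3 days signal was above the young and adult signals without fracture, so the groups overlapped. The difference did not pass the test (log2 -0.87 ± 0.43, adjusted p = 0.115), but it did without either young array, that of no fracture (log2 -1.24, adjusted p = 0.0441) or that of 3 days (log2 -1.24, adjusted p = 0.0493). The pair of Cxcl14 probe sets correlated at r = 0.958 over the 18 arrays.

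From 3 days to 4 weeks the Cxcl14 signals were higher at each next time at all 3 ages on both probe sets. The g probe set read 1064.5, 557.3, and 429.1 at 1 week and 1525.1, 1054.3, and 653.0 at 2 weeks in young, adult, and older rats. The order of the ages at both times was young, adult, and older. At 4 weeks it read 1951.3, 1619.8, and 2276.0, and at 6 weeks 2104.8, 2319.5, and 1688.4. At 4 and 6 weeks the ages no longer had this order. The at probe set read 636.8, 293.7, and 311.5 at 1 week, 883.7, 509.6, and 367.1 at 2 weeks, 926.0, 755.9, and 1623.5 at 4 weeks, and 748.0, 1197.5, and 1064.8 at 6 weeks. Here too the young rats were highest at 1 and 2 weeks and not at 4 or 6 weeks.

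Against no fracture neither Cxcl14 probe set passed the test after 3 days. The g probe set differed by -0.59 at 1 week (adjusted p = 0.296), 0.09 at 2 weeks (adjusted p = 0.903), 1.02 at 4 weeks (adjusted p = 0.151), and 1.08 at 6 weeks (adjusted p = 0.135) on the log2 scale. The older no-fracture array again decided the calls, since without it the g probe set rose by 1.62 at 4 weeks (adjusted p = 0.0124) and 1.69 at 6 weeks (adjusted p = 0.0145). The at probe set differed by -0.34 (adjusted p = 0.601), 0.16 (adjusted p = 0.837), 1.09 (adjusted p = 0.157), and 1.00 (adjusted p = 0.211) at the same 4 times.

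**Figure D2:**
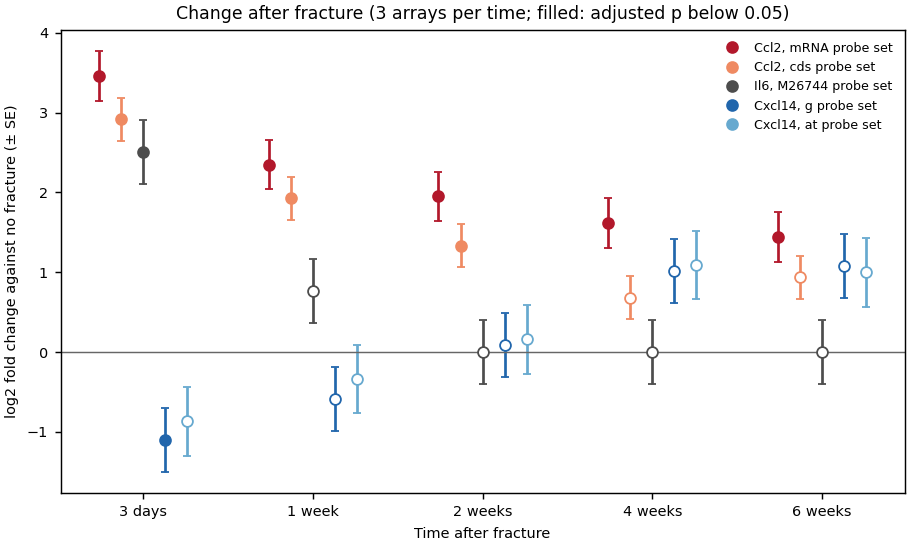
log2 fold change against no fracture with its SE for the 5 tested probe sets at each time after fracture (3 arrays per time). Filled points had an adjusted p below 0.05, as the mRNA probe set of Ccl2 did at all 5 times and the g probe set of Cxcl14 at 3 days alone. Il6 sits at 0 from 2 weeks on because all its signals were below the floor.

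Il6 is left out of the counts of calls at the 5 times and at 1 week against 3 days, since it could be tested only through its 3 days signals. Later counts of members include it. Of the 4 tested probe sets of Ccl2 and Cxcl14, 2 rose and 1 fell at 3 days, where 24.5% of all probe sets tested rose and 19.7% fell. At 1 week 2 rose and 0 fell, against 14.3% and 10.5% of all. At 2 weeks 2 rose and 0 fell, against 12.8% and 8.27%. At 4 weeks 1 rose and 0 fell, against 5.05% and 1.43%, and at 6 weeks 1 rose and 0 fell, against 3.19% and 1.2%. The probe sets that rose were those of Ccl2. The 5 comparisons share the 3 arrays without fracture. At 1 week against 3 days 3.17% of all probe sets were called, and none of these 4 was. Both Ccl2 probe sets were lower at 1 week than at 3 days at all 3 ages, without passing the test (mRNA log2 -1.11 ± 0.31, adjusted p = 0.0605, and cds log2 -0.99, adjusted p = 0.0593). They did pass when array medians were made equal (adjusted p = 0.0439 and 0.042) and without the older no-fracture array (adjusted p = 0.0484 and 0.0335). The mRNA probe set also passed without the older 3 days array (log2 -1.45, adjusted p = 0.0225), and the cds probe set without the older 1 week array (log2 -1.25, adjusted p = 0.043). No member was called by limma at the later steps. At 2 weeks against 1 week 1 member had an unadjusted limma p under 0.05, as did 159 of all 4669 probe sets, and 0% of all were called. At 4 weeks against 2 weeks 3 members had one, as did 446 of all, and 0.557% of all were called. At 6 weeks against 4 weeks 0 members and 200 of all had one, and 0% of all were called. By the methods' t-test 0 members had an unadjusted p under 0.05 in each of these steps, against 107, 332, and 114 of all. It called 0 of all in each step.

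The ages were compared over the 5 times after fracture. Ccl2 was highest in the older rats at every time on the mRNA probe set, with a lowest, median, and highest signal of 709.9, 907.7, and 1756.7. The same values were 271.1, 527.9, and 1313.0 in young and 244.3, 429.3, and 1728.3 in adult rats. The ranges overlapped because the 3 days signals were high at every age. With time as a term, the older rats were higher than the adult rats by 1.16 ± 0.24 on the log2 scale (2.24-fold, adjusted p = 0.0341, higher at 5 of 5 times). This was the only member of 5 called in this comparison, where 3.73% of all probe sets were called. It was lost when any of 9 single arrays was left out, namely the young 4 weeks array and the adult and older arrays of 1, 2, 4, and 6 weeks, with adjusted p from 0.051 to 0.127. It was also lost with no filter (adjusted p = 0.13).

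Between older and young rats the Ccl2 differences missed the threshold. They were 1.05 ± 0.24 (adjusted p = 0.0575) on the mRNA probe set and 1.00 ± 0.19 (adjusted p = 0.0523) on the cds probe set on the log2 scale, and the older rats were higher at 5 of 5 times on both. Limma called 0 of the 5 members and 0.15% of all probe sets. An unadjusted p under 0.05 was found for 4 members, Il6 among them, and for 971 of all 4669 probe sets. Both Ccl2 differences passed the threshold when any 1 of the 3 days arrays was left out (adjusted p from 0.0063 to 0.0472). On the cds probe set older rats differed from adult rats by 0.60 ± 0.19 (adjusted p = 0.0816, higher at 4 of 5 times and lower at 3 days), which passed without the adult 3 days (0.70, adjusted p = 0.0422) or older 3 days array (0.74, adjusted p = 0.0286). Adult and young rats differed by -0.11 (adjusted p = 0.894) on the mRNA and 0.40 (adjusted p = 0.395) on the cds probe set.

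Without fracture the older signal of Ccl2 was above the young one on the mRNA probe set but not on the cds probe set. On the mRNA probe set the single older no-fracture array read 225.5 against 96.2 in young rats, while on the cds probe set the readings were 101.2 and 103.4. Against the no-fracture array of their own age, the older rats were 7.79-fold higher at 3 days and 4.03-fold higher at 6 weeks on the mRNA probe set. In young rats the ratios were at least 13.1 and at least 2.71, and in adult rats 13.0 and 1.84. On the cds probe set the ratios at 3 days were 5.78 in young, at least 8.79 in adult, and 8.55 in older rats, and at 6 weeks 1.59, at least 1.52, and 2.94. The order of the ages at 3 days thus differed between the probe sets. These are ratios of single arrays and were not tested.

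Il6 was highest in the older rats at 3 days and 1 week on M26744_at, the times at which it was above the floor. Over all 5 times older rats differed from young rats by 0.78 ± 0.32 on the log2 scale (adjusted p = 0.182). The value depended on the floor, and with a floor of 20 it was 2.11 ± 0.36 (adjusted p = 0.0384). Against adult rats the older rats differed by 0.45 (adjusted p = 0.396), and adult from young rats by 0.34 (adjusted p = 0.696). For adult against young rats 0 members and 0% of all probe sets were called by limma and also by the methods' t-test. With limma 1 member had an unadjusted p under 0.05, as did 618 of all 4669 probe sets.

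Cxcl14 was called in no comparison of ages. Over the 5 times older rats differed from young rats by -0.67 ± 0.21 on the log2 scale on the g probe set (adjusted p = 0.107) and had the lower signal at 4 of 5 times. The at probe set differed by -0.40 (adjusted p = 0.481). In an analysis added after the data were seen, the times were split into 3 days to 2 weeks and 4 to 6 weeks. In the earlier period older rats differed from young rats by -1.08 ± 0.22 on the g (adjusted p = 0.206) and -1.10 ± 0.26 on the at probe set (adjusted p = 0.294). In the later period the differences were -0.05 ± 0.27 (adjusted p = 0.947) and 0.66 ± 0.32 (adjusted p = 0.256). The change between the periods was -1.03 ± 0.35 (adjusted p = 0.382) and -1.76 ± 0.41 (adjusted p = 0.161), and neither passed the test over all probe sets. Of all 4669 probe sets 3 were called between older and young rats in the earlier period and 89 in the later. For the change between the periods 1 of all was called. Adult rats differed from young rats in the earlier period by -0.77 (adjusted p = 0.456) on the g and -1.13 (adjusted p = 0.201) on the at probe set, where 1 of all was called.

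**Figure D3:**
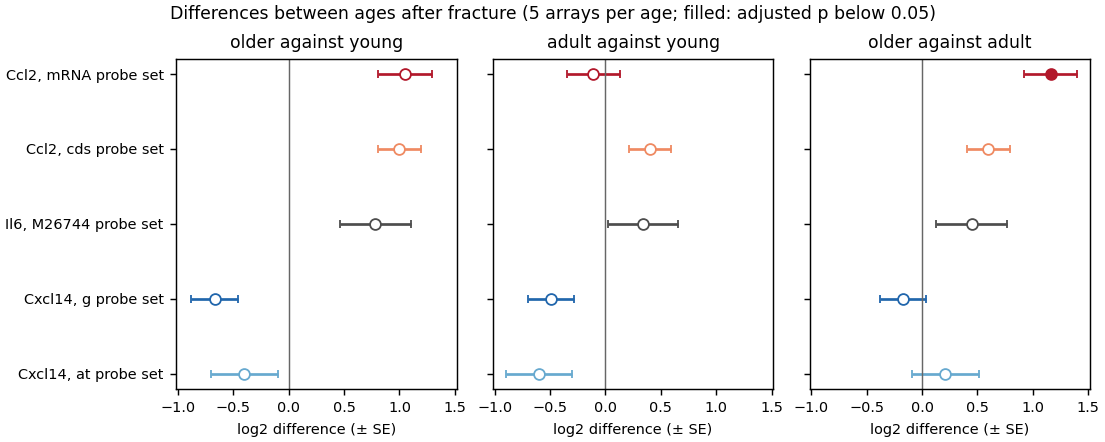
Difference between ages on the log2 scale with its SE for the 5 tested probe sets, from 5 arrays per age after fracture with time as a term. The only filled point, with an adjusted p below 0.05, is the mRNA probe set of Ccl2 in older against adult rats. Both Ccl2 points of older against young rats lie near 1.

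Relative to its own no-fracture array, Cxcl14 of the young rats was not reduced on the at probe set, where the ratio was 1.29 at 3 days and 2.39 at 2 weeks. On the g probe set these ratios were 0.961 and 2.30. In adult rats they were 0.488 at 3 days and 1.46 at 2 weeks on the g probe set. In older rats they were 0.217 and 0.360, and the older rats passed their own no-fracture signal on the g probe set only at 4 weeks. These ratios rest on single arrays and were not tested.

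Genes whose log2 signals ran most like those of each probe set over the 18 arrays are given by Pearson's r, as a description, since all genes were read from the same arrays and times. Most like the mRNA probe set of Ccl2 were Plod3 (0.944), an enzyme of collagen modification, P2ry6 (0.936), a nucleotide receptor, Rnase4 (0.933), Vmp1 (0.932), and Lgals3 (0.931), a lectin abundant in macrophages. Most like the cds probe set were Rnase4 (0.947), Rnh1 (0.944), an inhibitor of ribonucleases, Rpl11 (0.943), a ribosomal protein, Lman1 (0.940), a cargo receptor of the secretory pathway, and Lrrc59 (0.938). For Il6 they were Ykt6 (0.983), Pvr (0.923), Il1rl1 (0.911), the receptor of interleukin 33, Cyp4b1 (0.903), and Psma5 (0.896), but with 13 of 18 Il6 values at the floor these values rest on 5 arrays. For the g probe set of Cxcl14 they were Cfd (0.924), which adipocytes secrete, Cma1 (0.917) and Mcpt1l1 (0.911), both mast cell proteases, Lat (0.873), and Slfn2 (0.867). The at probe set had Pip5k1c (0.877), Cfd (0.874), Mcpt1l1 (0.874), Cma1 (0.873), and Kng2 (0.863). Cfd, Cma1, and Mcpt1l1 were thus among the 5 genes of both Cxcl14 probe sets. Between members, Ccl2 and Il6 (M26744_at) correlated at 0.833 on the cds and 0.723 on the mRNA probe set of Ccl2, and the g probe set of Cxcl14 correlated at -0.692 with the cds probe set of Ccl2 and at -0.731 with Il6.

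Markers of cell types moved beside these genes. The summed signal of 9 monocyte and macrophage markers was 10765 to 23369 without fracture, 14622 to 17702 at 3 days, and 12453 to 17426 at 6 weeks. These ranges overlapped, and of the 7 markers tested 3 rose and 1 fell at 3 days. Larger moves at 3 days, the peak of Ccl2 and Il6, were those of other lists. The sum of 8 fibroblast and fibrous matrix markers was 8073 to 33394 without fracture and 62072 to 77202 at 3 days, with 7 of 8 called up, and that of 8 bone markers was 26192 to 83795 and 85906 to 112139, with 5 of 7 called up and 1 down. The sum of 11 skeletal muscle markers was 114124 to 255480 without fracture and 51010 to 79946 at 3 days, with 10 of 11 called down, and 5 of 5 erythroid markers were called down too. Itgam was below the floor on every array. By age after fracture the monocyte and macrophage sum had a median of 14485 in young, 12453 in adult, and 16028 in older rats. Limma called 0 of its 7 tested markers between older and young rats (3 with an unadjusted p under 0.05). Between older and adult rats it called 1, Lgals3, higher in older rats like Ccl2 (log2 0.90, adjusted p = 0.0457). The skeletal muscle sum had a median of 176382 in young, 201741 in adult, and 98651 in older rats. Of its 11 markers 1, Myh2, was called lower in older than in young rats (log2 -1.53, adjusted p = 0.0374). An unadjusted p under 0.05 was found for 8 of the 11 in older against young and also in older against adult rats. Between older and young rats it was found for 971 of all 4669 probe sets, and between older and adult rats for 1213. The counts between older and young rats were 5 of 5 erythroid, 5 of 6 neutrophil, 4 of 5 cartilage, and 4 of 8 fibroblast markers, with no call. The erythroid sum had a median of 54268 in young, 13645 in adult, and 10868 in older rats, and the neutrophil sum 15164, 2379, and 6449. With 1 of the 15 fracture arrays left out in turn, each of these calls, that of Lgals3 and that of Myh2, was held in 6 of 15 cases. The sum of 6 endothelial markers was 933 to 1427 in young and 1496 to 1716 in older rats, ranges that did not overlap, and limma called 0 of the 4 tested (1 with an unadjusted p under 0.05). The summed signal of 10 mast cell markers was 2055 to 4077 without fracture, 777 to 1123 at 3 days, 5504 to 7980 at 4 weeks, and 4561 to 7541 at 6 weeks. Like the mean signal of Cxcl14, this sum was lowest at 3 days and higher at 4 and 6 weeks than at any earlier time. The same course was seen in the median sum of 10 lymphocyte markers. It was 2475 without fracture, 1234 at 3 days, 3171 at 4 weeks, and 3535 at 6 weeks. Of 5 lymphocyte markers tested 2 fell at 3 days, and 0 rose at 4 or 6 weeks. Of the 6 mast cell markers tested 1 fell at 3 days, and 3 rose at 4 weeks and at 6 weeks. The sum of 7 adipocyte markers was 8787 to 12184 without fracture, 5405 to 6011 at 3 days, and 10023 to 12905 at 6 weeks, and 3 of its 5 tested markers fell at 3 days. The part of these cells in the values of Ccl2, Il6, and Cxcl14 was not tested.

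Lists of the other chemokines, cytokines, and signal carriers were counted in the same comparisons. Their counts at 3 days are to be read against the 24.5% of all probe sets that rose and the 19.7% that fell. Of 18 CC chemokine ligands 6 were on the array, and Ccl2 was the only one bright enough to be tested. Of 17 CXC, CX3C, and XC ligands 9 were on the array and 5 were tested. Cxcl13, which attracts B cells, rose at least 3.89-fold at 3 days (log2 1.96 ± 0.37, adjusted p = 0.000628), with a mean signal of 396 ± 89.9 (SD, n = 3) against 53.9 ± 28.2 without fracture. Its means were lower at 1 week (248 ± 230), 2 weeks (110 ± 42.7), and 4 weeks (85.5 ± 18). The 3 days arrays of Cxcl13 thus counted toward the filter, and its call is given as a description, like that of Il6. Pf4, the platelet factor stored by megakaryocytes, fell from a mean of 9512 ± 5155 to 2112 ± 945 (log2 -2.09, adjusted p = 0.000885) and was lower at 1 week (log2 -2.88), 2 weeks (log2 -2.99), and 4 weeks (log2 -1.94, adjusted p = 0.00953) too. The 4 weeks call of Pf4 was lost without the older 4 weeks array (adjusted p = 0.066). The median log2 change of the 5, Cxcl14 among them, was -0.49 at 3 days, beside 0.01 over all probe sets tested. Over the 4 without Cxcl14 it was -0.34.

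Of 23 chemokine receptors 10 were on the array, and the 4 tested were Ccr1, Cxcr1, Cxcr4, and Ackr3. Limma called 0 of these at any time against no fracture. At 3 days their median log2 change was -0.41, and 2 had an unadjusted p under 0.05, as did 2395 of all 4669 probe sets. The nearest were Cxcr4 (log2 -0.51, adjusted p = 0.0846) and Ackr3 (log2 0.70, adjusted p = 0.0953). The methods' t-test called 0 of the 4 at 3 days too, and 848 of all 4669. Ccr2, the receptor of Ccl2, was not among the genes tested.

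Of the receptors and signal carriers of interleukin 6, Il6st rose at least 2.13-fold at 3 days (log2 1.09 ± 0.33, adjusted p = 0.0146) and at least 2.68-fold at 1 week (log2 1.42, adjusted p = 0.00524). The 3 days call was lost without the young 3 days, adult no-fracture, or older no-fracture array (highest adjusted p = 0.0856). Il6r, the specific receptor, had a log2 change of -0.29 at 3 days (adjusted p = 0.332). Of 9 tested JAK and STAT genes and inhibitors, 3 rose at 3 days and 1 fell, beside 24.5% and 19.7% of all. Socs3, which feeds back on the pathway, rose at least 2.19-fold (log2 1.13, adjusted p = 0.05 after rounding, just under the threshold) and at 1 week at least 2.90-fold (log2 1.54, adjusted p = 0.0192). The kinase Jak2 rose by 0.67 (adjusted p = 0.0337) and the inhibitor Pias3 by 0.58 (adjusted p = 0.022), and Stat5b fell (log2 -0.59, adjusted p = 0.0454). These 4 calls at 3 days were fragile. With 1 of the 18 arrays left out in turn, Socs3 was called in 3 of 18 cases, Stat5b in 8, Jak2 in 13, and Pias3 in 14, and without the young 3 days array 0 of the genes that rose were called. Socs3 at 1 week was called in 15 of 18 cases and not without the young 1 week, older no-fracture, or older 1 week array. Stat3 had a log2 change of -0.05 (adjusted p = 0.904).

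The 13 tested genes that interleukin 6 is known to induce, mainly in other tissues, went both ways. At 3 days 4 rose and 2 fell, with a median log2 change of 0.45 beside 0.01 over all probe sets, and these counts are near the 24.5% and 19.7% of all. Timp1, the inhibitor of metalloproteinases, rose 7.22-fold (log2 2.85 ± 0.26, adjusted p = 6.58e-06), from a mean of 858 ± 250 to 6043 ± 299, and was still 3.26-fold higher at 6 weeks (log2 1.71, adjusted p = 0.00205). Junb, an early response transcription factor, rose 2.96-fold (log2 1.57, adjusted p = 9.24e-05), and Serpina3n, an acute phase protease inhibitor, rose 2.27-fold (log2 1.18, adjusted p = 0.000519). The acute phase carriers Hp and Orm1, which granulocytes also store, fell (Hp 5.40-fold, log2 -2.43, adjusted p = 0.000159, and Orm1 at least 2.61-fold, log2 -1.38, adjusted p = 0.0104). The summed signal of 6 neutrophil markers was 44475 to 86996 without fracture and 1375 to 15164 at 3 days, with all 6 lower, and its part in the fall of Hp and Orm1 was not tested. Orm1 was not called at 3 days without the older no-fracture array (adjusted p = 0.0644). Its mean signal was 77.6 ± 16.8 (SD) at 3 days. Over the times after fracture it was 105.5 ± 32.2 in adult and 114.0 ± 37.9 in older rats. No-fracture arrays of Orm1 thus counted toward the filter, and its calls are given as a description, like that of Il6.

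At 1 week 5 of these 13 genes rose and 2 fell, and at 2 weeks 4 rose and 2 fell. Orm1, as a description, was counted among those that fell at both times. Icam1, an adhesion molecule for leukocytes, was among those that rose at 1 week (log2 0.83, adjusted p = 0.038), 2 weeks (log2 1.06, adjusted p = 0.0126), and 4 weeks (log2 1.05, adjusted p = 0.0354), and each call was lost without the young array of its own time or the young no-fracture array. The 1 week and 4 weeks calls were also lost without the adult or the older array of their own time. At 4 weeks 2 of 13 rose and 0 fell, and at 6 weeks 1 rose, Timp1. Timp1 and Ccl2 on its mRNA probe set were thus both called at all 5 times.

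Of 8 tested genes of interleukin 1, tumor necrosis factor, and NF-kB, 0 rose and 1 fell at 3 days, Il1r2, a decoy receptor (log2 -0.90, adjusted p = 0.019). This call was lost without the adult 3 days, older no-fracture, or older 3 days array (highest adjusted p = 0.0725). Nfkbia, the NF-kB inhibitor that NF-kB itself induces, had a log2 change of -0.07 at 3 days (adjusted p = 0.828) and rose later, at 2 weeks (log2 0.89, adjusted p = 0.00933) and 4 weeks (log2 0.83, adjusted p = 0.0356). Its 4 weeks call was held in 12 of 18 cases with 1 array left out. Of 7 other tested interleukins and colony stimulating factors, 3 rose and 2 fell at 3 days, beside 24.5% and 19.7% of all. Il18 rose 4.08-fold (log2 2.03 ± 0.27, adjusted p = 5.25e-05), Il33 at least 2.78-fold (log2 1.48, adjusted p = 0.00163), and Mif 1.89-fold (log2 0.92, adjusted p = 0.000443), while Il15 fell 3.25-fold (log2 -1.70, adjusted p = 0.000272) and Csf3 fell too (log2 -0.59, adjusted p = 0.0435, called in 7 of 18 cases with 1 array left out). Il18 was also called up at 6 weeks (log2 1.04, adjusted p = 0.0416), in 5 of 18 cases with 1 array left out.

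**Figure D4:**
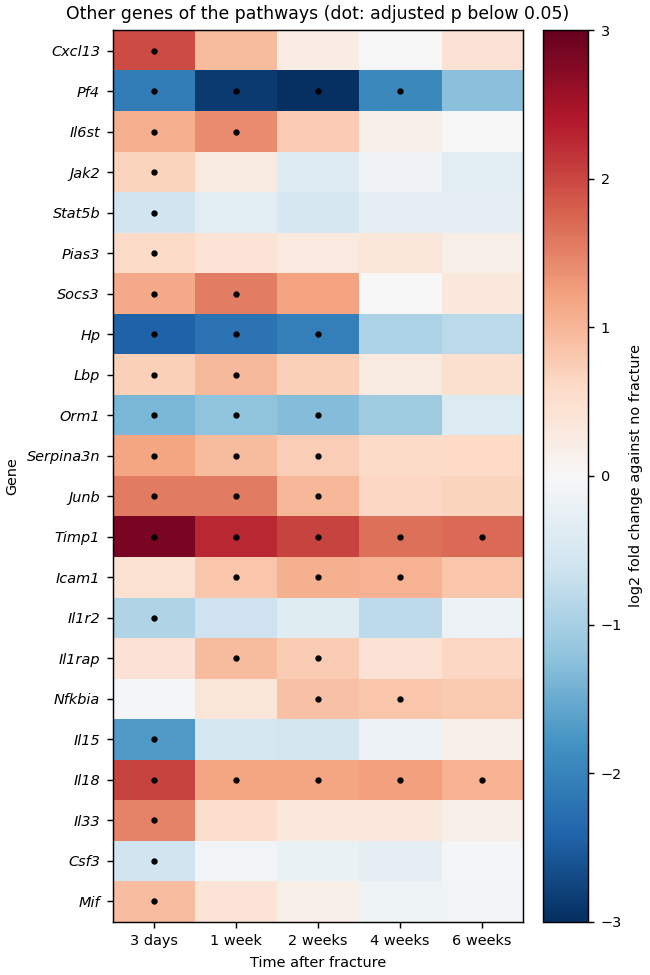
log2 fold change against no fracture (color) at 5 times for the 22 of 49 other tested pathway genes that were called at 1 time or more, with a dot for an adjusted p below 0.05. Timp1 and Il18 carry a dot at all 5 times, and most other dots stand at 3 days to 2 weeks.

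Over all lists together, without the members, 12 of 49 tested genes rose and 7 fell at 3 days. The 12 included Cxcl13 and the 7 included Orm1, whose calls are descriptions. The median log2 change of the 49 was -0.02, beside 0.01 over all probe sets. The share that rose was at the background of 24.5%, and the share that fell was below the 19.7% of all. The counts were 9 and 3 at 1 week, 7 and 3 at 2 weeks, 4 and 1 at 4 weeks, and 2 and 0 at 6 weeks, where 14.3% and 10.5%, 12.8% and 8.27%, 5.05% and 1.43%, and 3.19% and 1.2% of all probe sets rose and fell. Between older and young rats limma called 0 of the 49, and 0.15% of all probe sets. The methods' t-test called 0 of the 49 and 0 of all. With limma 11 of the 49 had an unadjusted p under 0.05, as did 971 of all 4669 probe sets. The nearest were Il33, higher in older rats (log2 1.16, adjusted p = 0.0523), Cntfr, lower (log2 -0.71, adjusted p = 0.067), and Cxcl13, higher (log2 1.01, adjusted p = 0.0725).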

How the data were processed

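Per the labels, each of 18 arrays held RNA pooled from 2 rats. The authors deposited intensities from Affymetrix rat arrays, computed with Microarray Suite 5.0 and scaled to an average of 500. A mean trimmed by 2% at both ends was 500.6 to 500.9 on each. Other arrays of the study were not analysed here, and 0 columns were left unused. Symbols came from the platform's annotation, 6994 updated through gene identifiers, and 7018 probe sets had 1 symbol, 308 had several, and 1473 had none.

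Signals were floored at 100 and put on the log2 scale. Those with 200 or more on 3 or more arrays, the 59 controls left out, went into limma 3.58.1 in R 4.3.3 (lmFit, eBayes with trend, two-sided), with Benjamini-Hochberg adjustment over 4669 probe sets and a threshold of 0.05. Times were compared on 18 arrays with age as a term, and ages on the 15 fracture arrays with a time term. The replicate number is the age, so arrays of the same number share an age and not an animal. Deviations from the time means correlated at a median of 0.07, 0.33, and 0.32 between arrays of young, adult, and older rats. The limma p-values measure the spread left between arrays after the age or time term.

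Every member was named in every comparison. In lists each gene was read from its brightest probe set, naming up to 4 called genes with the largest change, and others named were chosen after their values were seen. Marker lists were summed without a floor. Members, lists, and tests were chosen with earlier results of these data known. Alternatives were equal medians, quantile normalization, a floor of 20 or 200, a filter at 500 or none, no age or time term, fewer or more arrays, the methods' t-test, and each array left out. Steps were tested on simulated data. Promoter windows came from RefSeq (GRCr8). Python 3.11.15 with matplotlib 3.10.9 drew the figures.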

Additional observations from a re-analysis of the deposited data

Results flagged for a closer look

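In a group of 5 arrays of an age after fracture, the 3 days array stood far from the others for Il6. The gap to the nearest array as a share of the range on the log2 scale was 1.00 in young and 0.889 in adult rats on M26744_at. On M26745cds_s_at it was 1.00 in adult and 1.00 in older rats. A value of 1.00 means that the other 4 arrays were all at the floor of 100. The 6 probe sets were examined at 3 ages. The 5 arrays of an age differ in time, so no rate of such gaps by chance is given. The 3 days array is the peak of the time course, so these values describe the same signals as the comparison with no fracture.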

How the results depend on the processing

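Of the single values of the 5 tested probe sets under the alternatives, 1518 kept their direction and their side of the threshold, 46 lost the call, 25 gained it, and 19 values without a call changed sign, while no called value did. The cause of these changes was not tested. The number of member probe sets called against no fracture, Il6 included, was 4 at 3 days, 2 at 1 week, 2 at 2 weeks, 1 at 4 weeks, and 1 at 6 weeks. It was 1 at 1 week against 3 days, 0 for older against young, and 1 for older against adult rats. Il6 was 1 of the 4 at 3 days and the 1 at 1 week against 3 days, and both calls are descriptions. The shares of all probe sets called by limma are given above with each comparison. By the methods' t-test the number of members called was 2 at 3 days and 0 in each of the others, while 3, 2, 2, 1, and 1 had an unadjusted p under 0.05 at the 5 times. Of all 4669 probe sets 1834, 1004, 898, 498, and 377 had one. The t-test called 848 of all at 3 days, 1 at 1 week, 18 at 2 weeks, and 0 at 4 and 6 weeks. It called 5 of all at 1 week against 3 days, 0 for older against young, and 3 for older against adult rats. After 3 days so few of all were called that a count of 0 members says little. With age left out as a block, or with only the 6 arrays of the times compared, the limma count of members was 0 at 4 and 6 weeks. It was also 0 at 1 week against 3 days, and leaving out the block changed no other count of calls. With a floor of 200 it was 1 at 2 weeks, 0 at 4 and 6 weeks, and 2 at 1 week against 3 days. With a floor of 20 or a filter at 500 it was 0 at 1 week against 3 days and 1 for older against young rats. A floor of 20 also gave 3 at 1 week. At 3 days the count was 3 with a filter at 500, with no filter, and with only the 6 arrays of the times compared. With no filter it was 0 at 6 weeks, 0 at 1 week against 3 days, and 0 for older against adult rats. With equal array medians it was 3 at 1 week against 3 days and 1 for older against young rats. For older against adult rats it was 0 without the time term and 0 within 3 days to 2 weeks and 0 within 4 to 6 weeks, both added after the data were seen. In both of these periods 0 of all 4669 probe sets were called, so a count of 0 members says nothing about the members. With 1 array left out the count ranged from 3 to 5 at 3 days, 1 to 2 at 4 weeks, and 0 to 2 at 6 weeks. It ranged from 0 to 3 at 1 week against 3 days, 0 to 2 for older against young, and 0 to 2 for older against adult rats. Signal over background limits Il6, with 13 of 18 arrays below the floor on M26744_at and 16 of 18 on M26745cds_s_at.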
